A study of Mus musculus with 4 samples.

Results

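The spots described here are 90 places in brain sections of endothelial Pdcd10 knockout mice that held at least 3 molecules of the chemokine transcript Cxcl10. They were chosen by that count alone, among the 9071 spots of the 2 knockout libraries with at least 1000 unique molecular identifiers (UMIs, 1 per captured transcript). Knockout library 1 gave 11 of its 4599 kept spots and knockout library 2 gave 79 of its 4472, in a series of 16098 kept spots over 4 libraries. Because Cxcl10 chose them, its own level in these spots is a description and carries no test. A Visium spot is a small region of tissue that can hold several cells of different types, so that fewer cells of a type and less RNA per cell cannot be told apart in any value below.

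The study compared mice whose brain endothelium lacks Pdcd10, also called CCM3, with controls that carry the floxed gene and no Cre. Loss of Pdcd10 in endothelium gives cerebral cavernous malformations, leaky clusters of dilated capillaries. Both groups were Pdcd10fl/fl, and the knockouts also carried Slco1c1-iCreERT2, a tamoxifen-regulated Cre that is active mainly in brain endothelium. Whether the other cells of a spot kept the gene was not checked here. All mice received 50 µg of 4-hydroxytamoxifen on postnatal day 1 and were examined at 65 days, as fresh-frozen brain sections of 10 µm. The sample names give normoxia for all 4 libraries, whereas the treatment label gives hypoxia for the knockouts and normoxia for the controls, and the protocol gives 12% oxygen for 2 days. If the treatment label holds, oxygen and genotype cannot be told apart between the groups. The comparisons below were therefore made between spots of the same knockout library, which share a section and its oxygen. The labels do not say that the 2 knockout libraries came from separate mice, so the variation behind every p-value below may be technical. That variation was pooled over genes, and a gene's own disagreement between the libraries did not enter its p-value.

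Cxcl10 encodes a small secreted protein that draws cells carrying the receptor CXCR3, chiefly activated T cells and natural killer cells. Interferons bind receptors that work through the kinases JAK1, JAK2 and TYK2, which phosphorylate transcription factors. With IRF9 these form a complex that binds the interferon-stimulated response element (ISRE) before many antiviral genes, while interferon gamma acts mainly through the GAS element. Cxcl10 is switched on by both routes and also by NF-kB, the factor downstream of tumour necrosis factor, interleukin-1 and Toll-like receptors. In brain, astrocytes, microglia and endothelium can all make it.

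The promoter of Cxcl10 and those of the 3 interferon-stimulated genes with the smallest p-value that have a window are shown because these genes were high in the same spots. Each sequence is the 250 bases before the RefSeq transcription start in GRCm38.p6, read 5′ to 3′ on the strand of the gene, with every ISRE match (GAAANNGAAA on either strand, overlapping matches merged) in capitals. Cxcl10 lies on the minus strand (chr5:92348890-92349139), Rsad2 on the minus strand (chr12:26456453-26456702), Ifit3 on the plus strand (chr19:34583279-34583528) and Isg15 on the minus strand (chr4:156200819-156201068).
Cxcl10: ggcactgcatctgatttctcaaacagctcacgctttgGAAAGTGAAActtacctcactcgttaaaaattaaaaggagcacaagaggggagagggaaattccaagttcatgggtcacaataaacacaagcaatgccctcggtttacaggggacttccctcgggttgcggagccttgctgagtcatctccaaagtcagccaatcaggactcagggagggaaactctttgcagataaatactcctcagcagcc
Rsad2: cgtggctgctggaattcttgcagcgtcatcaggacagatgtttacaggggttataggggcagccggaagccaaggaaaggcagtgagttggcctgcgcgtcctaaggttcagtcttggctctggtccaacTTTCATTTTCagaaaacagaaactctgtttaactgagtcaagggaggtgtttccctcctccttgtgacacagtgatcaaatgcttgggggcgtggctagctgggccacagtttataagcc
Ifit3: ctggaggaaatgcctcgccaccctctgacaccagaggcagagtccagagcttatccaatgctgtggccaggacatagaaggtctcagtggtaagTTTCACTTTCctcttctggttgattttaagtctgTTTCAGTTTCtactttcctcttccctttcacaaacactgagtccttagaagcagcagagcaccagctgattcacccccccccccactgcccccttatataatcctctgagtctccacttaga
Isg15: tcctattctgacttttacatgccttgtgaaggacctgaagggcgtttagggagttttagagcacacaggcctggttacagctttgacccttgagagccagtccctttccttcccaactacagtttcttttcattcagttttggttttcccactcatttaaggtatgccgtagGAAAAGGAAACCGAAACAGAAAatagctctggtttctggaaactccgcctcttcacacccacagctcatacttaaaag
The Cxcl10 window held 1 ISRE match, 213 to 204 bases before the start, and 2 matches of the NF-kB motif, nearer to the start. Rsad2 held 1 ISRE match, Ifit3 held 2, and Isg15 held 3 that overlap one another between 78 and 57 bases before the start. A match is a description of these letters and not a measured binding site.

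Sequencing gave 50148764 UMIs for control 1, 64317838 for control 2, 53514669 for knockout 1 and 74467027 for knockout 2, and the kept spots held 98.6% to 99.5% of them. All 4 libraries list the same barcodes, which are the positions of the slide, and no member barcode was shared by the 2 knockouts. Neither the coordinates of the spots nor the section images were used here, and whether members adjoin one another was not analysed. Pdcd10 itself was counted at 89.4 and 79.1 counts per 1000000 UMIs (CPM) in the controls and at 81.2 and 86.3 CPM in the knockouts. Most cells of a section are not endothelial and a 3′ tag can lie outside the deleted part, so this count does not check the genotype labels. Markers of brain tissue were present in the members themselves, with Slc17a7 of excitatory neurons at 925 and 1196 CPM and Slc1a2 of astrocytes at 874 and 833 CPM in knockouts 1 and 2.

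Cxcl10 was rare and gathered in few spots. Whole libraries held 12 and 15 Cxcl10 UMIs in the controls, 172 in knockout 1 and 1619 in knockout 2. As CPM these are 0.239 and 0.233 in the controls, 3.21 in knockout 1 (95% Poisson interval 2.75 to 3.73) and 21.7 in knockout 2 (20.7 to 22.8). Here and below, intervals cover counting error only. Both knockouts lay above both controls, and the knockouts differed from each other by more than counting error.

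The members held 59.3% of the Cxcl10 UMIs of knockout 1 and 76.1% of those of knockout 2. The 5 richest spots alone held 40.7% and 30.4%. In knockout 1 the members had from 3 to 16 Cxcl10 UMIs with a median of 10. In knockout 2 they had from 3 to 138 with a median of 6, and the 8 richest held 138, 137, 78, 72, 67, 66, 53 and 51. Relative to depth the 2 libraries had like medians, 5.45 and 5.72 Cxcl10 UMIs per 10000, but the richest spot reached 8.55 in knockout 1 and 53.7 in knockout 2. The 22 spots of knockout 2 at exactly 3 UMIs sit just inside the rule and the 60 at exactly 2 just outside it, against 1 and 9 in knockout 1.

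**Figure D1:**
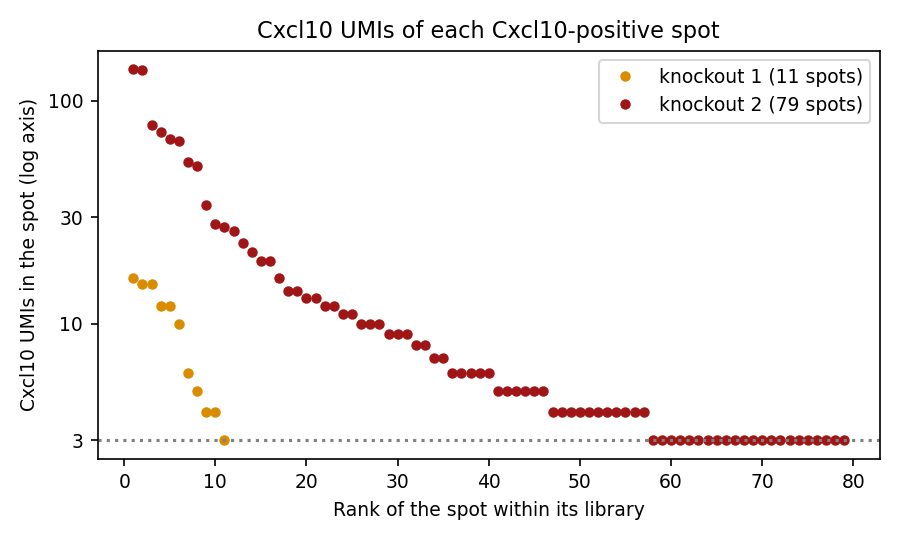
Cxcl10 UMIs (log axis) of each of the 90 member spots against its rank within its knockout library, with the rule of 3 UMIs as a dotted line. The 11 spots of knockout 1 run from 16 down to 3 and the 79 of knockout 2 from 138 down to 3, with 8 spots of knockout 2 above 50.

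Members made up 0.239% of kept spots in knockout 1 (95% exact binomial interval 0.1195 to 0.4276) and 1.77% in knockout 2 (1.40 to 2.20). Control 1 had 1 such spot of 2931 (0.0341%), and control 2 had 0 of 4096, for which the exact interval reaches up to 0.0900%. Knockout 1 was the shallowest library, with a median of 8158 UMIs per kept spot against 13164.5 in knockout 2 and 15326 and 16226.5 in the controls. With spots of at least 5000 UMIs thinned to 5000, the shares were 0.237% in knockout 1, 1.15% in knockout 2 and 0 in both controls, after leaving out 1647, 1004, 664 and 1539 shallower spots. At equal depth the exact interval of knockout 2 (0.825 to 1.57) lay above that of knockout 1 (0.0954 to 0.488). That of knockout 1 overlapped those of the controls, which reach up to 0.163% and 0.144%. With 2 libraries a group no permutation test can reach 0.05, and none was run.

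Members had a higher median depth than the kept spots of their library, which had 8158 and 13164.5 UMIs in knockouts 1 and 2. Single members of knockout 2 went down to 1488 UMIs. Each member was therefore set against 5 spots of the same library that held no Cxcl10 and had the nearest total. The members had a median of 17103 and 16085 UMIs in knockouts 1 and 2, and their 55 and 395 matched spots had 17102 and 16065. Mitochondrial transcripts were 7.97% and 6.85% of UMIs in the members against 9.68% and 8.41% in the matched spots, so that they moved with the comparison, and their part in it was not tested. Counts were summed per library and class, Cxcl10 was left out, and edgeR compared the sums with library as a block. Of 10808 genes tested, 311 were higher in the members (2.88%) and 243 lower (2.25%) at a Benjamini-Hochberg adjusted p under 0.05. The median log2 difference of all genes was -0.011. These 2 shares are the background for each list below. The filter on low counts could pass a gene scarce in matched spots only through its level in the members. Counts of rises among such genes are therefore partly set by that filter. With 1 residual degree of freedom the test rested wholly on a dispersion shared over genes. A small p-value thus does not show that the libraries were alike for that gene. DESeq2 on the same sums called 61 higher and 17 lower.

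Chemokines for monocytes were among the largest rises of the genes called. Ccl2 and Ccl7, ligands of the monocyte receptor CCR2, were counted at 90.9 and 20.2 CPM in the members of knockout 1 and at 411 and 82.4 CPM in those of knockout 2. In the matched spots neither gene had a UMI in knockout 1, and they stood at 4.37 and 0.423 CPM in knockout 2. Matched spots of the controls held 0.124 and 0.871 CPM of Ccl2. Members and matched spots did not overlap, but the members lay above without overlap for 21.5% of all tested genes. The log2 differences were 6.58 ± 0.28 (SE) for Ccl2 and 7.45 ± 0.57 for Ccl7 (edgeR's quasi-likelihood test, Benjamini-Hochberg adjusted p 8.9e-116 and 1.2e-35). Against the 3 counts that a class at 0 allows, Ccl7 was at least 6.67-fold higher in knockout 1. In knockout 2, Ccl7 was 195-fold higher (65.1 to 959) and Ccl2 94.2-fold (65.6 to 139.9). In knockout 1 a single spot carried 15 of the 18 Ccl2 UMIs and 4 of 11 spots had any, whereas in knockout 2 a Ccl2 UMI was found in 77.2% of members and 5.57% of matched spots.

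Other chemokines followed in part. Of 21 listed genes 9 were tested, of which 6 were higher and none lower, with a median log2 difference of 3.32. Genes scarce in matched spots, Ccl2, Ccl7, Ccl5 and Ccl12 among them, passed the count filter only through the members, which partly sets that count. Ccl5, which draws T cells and monocytes, was 10.1 against 2.02 CPM in knockout 1 and 68.3 against 2.68 in knockout 2, and Ccl12, a further CCR2 ligand, was 65.7 against 2.02 and 106 against 11.8. Ccl5 rested on knockout 2, where it was 25.5-fold higher (15.5 to 44.2), since knockout 1 held 2 UMIs in each class. Ccl3 (log2 difference 3.90) and Pf4 (2.68) were the remaining rises. Cx3cl1, made by neurons, Cxcl12 and Cxcl14 were not called, at -0.016, -0.30 and -0.51. The neutrophil chemokines Cxcl1 and Cxcl2, named after their values were seen, did not pass the count filter. In knockout 2 they stood at 121 and 109 CPM in members against 1.97 and 0.987 in matched spots, and in knockout 1 each was at 5.05 CPM in members, which is 1 UMI.

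The partners of Cxcl10 were scarcely seen. Cxcl9, the ligand that shares its receptor and answers mainly interferon gamma, had no UMI in the members of knockout 1 and 3 UMIs (2.11 CPM) in those of knockout 2. Cxcr3, the receptor, had 0 and 1 UMI. None of the 10 listed interferons, among them Ifnb1, Ifng and 4 alpha interferons, had a UMI in any member, so that no interferon transcript was detectable at the 198034 and 1420740 UMIs summed over members.

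**Figure D2:**
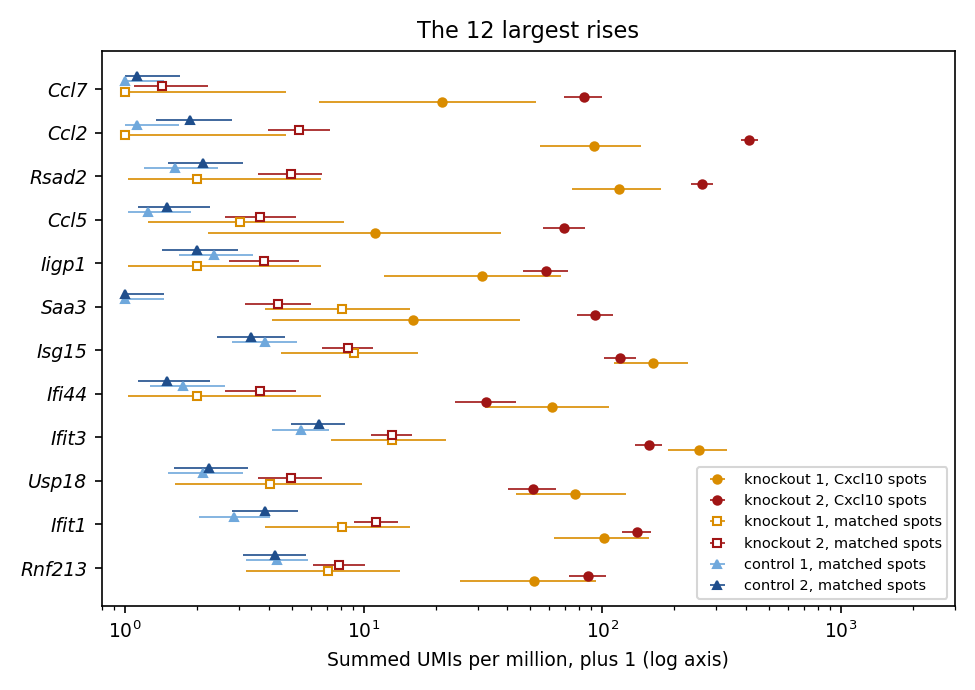
Summed CPM plus 1 (log axis) of the 12 largest rises, with circles for Cxcl10 spots, open squares for matched spots of the same knockout and triangles for matched spots of the controls, and bars for 95% Poisson intervals. Rsad2 stood at 116 and 261 CPM in the members against 1.01 and 3.95 in matched spots, while Ccl5 and Saa3 were further apart in knockout 2 than in knockout 1.

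Interferon-stimulated genes were higher nearly throughout their list. Of 54 genes in the files 42 were tested, 35 were higher and none lower, and 41 lay above 0, with a median log2 difference of 2.59. The 12 others did not pass the filter on low counts and are not part of that count. Genes scarce in matched spots, Rsad2 and Ifi44 among them, passed it only through the members, so the count is partly set by the filter. Rsad2, the antiviral enzyme viperin, was 116 CPM in members against 1.01 in matched spots of knockout 1 and 261 against 3.95 in knockout 2 (log2 difference 6.06 ± 0.29, edgeR adjusted p 1.7e-94). Matched control spots held 0.619 and 1.12 CPM. Rsad2 was present in 63.6% and 74.7% of members and in 1.82% and 5.32% of matched spots.

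Isg15, a ubiquitin-like modifier, was 162 against 8.09 CPM in knockout 1 and 118 against 7.61 in knockout 2, and Ifit3, which binds viral RNA with Ifit1, was 253 against 12.1 and 156 against 12.1. Ifit3 was 20.8-fold higher in knockout 1 (10.9 to 43.0) and 12.85-fold in knockout 2 (9.97 to 16.7), intervals that overlap. All 11 members of knockout 1 held Ifit3, as did 67.1% of those of knockout 2, against 21.8% and 17.2% of matched spots. Ifit1 stood at 101 against 7.07 and 139 against 10.3 CPM. Ifi44 was 60.6 against 1.01 and 31.7 against 2.68 CPM.

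Smaller rises in the list reached Psme2 (0.84), a proteasome activator subunit. The 7 genes not called were Ifitm2 (0.67), Ifi27l2a (1.13), Ifit1bl1 (1.57), Ifi27 (0.26), Psme1 (0.13), Psmb10 (0.090) and Ifitm1 (-0.20). Rnf213, an interferon-induced ubiquitin ligase that is in no list, was among the 12 largest rises, at 50.5 against 6.06 and 86.0 against 6.91 CPM. Summed over its 54 genes the list gave 27.4 UMIs per 10000 in the members of knockout 1 (25.1 to 29.8) and 26.0 in those of knockout 2 (25.2 to 26.9). Matched spots gave 6.53 and 7.32, and matched control spots 4.37 and 4.13. The members of both knockouts thus had like levels, and these lay far above their matched spots.

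The steps of interferon signalling differed by role. The 4 receptor genes tested were not called. Ifnar1 was 0 against 8.09 CPM in knockout 1 and 15.5 against 18.9 in knockout 2, Ifnar2 was 50.5 against 25.3 and 28.9 against 27.9, and Ifngr1 and Ifngr2 had log2 differences of 0.033 and -0.38. Of the kinases, Jak1 (0.27) and Jak2 (0.49) were not called and Tyk2 was not tested. The transcription factors downstream of them rose. Stat2 was 70.7 against 19.2 CPM and 94.4 against 21.6 (2.05 ± 0.28, edgeR adjusted p 3.4e-11), Irf7 was 55.6 against 7.07 and 47.2 against 7.19 (2.74), and Irf9 was 55.6 against 20.2 and 47.2 against 12.7 (1.76).

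Irf1 (1.98) and Stat3 (0.87) also rose, while Irf8 (1.02) was not called. Feedback inhibitors rose as well. Usp18, which blocks the type I receptor, was 75.8 against 3.03 and 50.0 against 3.95 CPM, and Socs3 was 30.3 against 5.05 and 33.1 against 10.3. In all, 8 of 11 signalling genes tested were higher and none lower. Usp18 and Irf7 were scarce in matched spots and passed the count filter only through the members, which partly sets that count. Stat3, Irf1, Irf9 and Socs3 were not called by DESeq2, nor Stat3 without the 5 richest spots. In the list of viral nucleic acid sensors and factors downstream of them, 4 of 7 genes tested rose. These were the sensors Ifih1 (2.97), Tlr3 (2.38), Ddx58, which encodes RIG-I (2.79), and Zbp1 (3.42). The sensor Tlr7 (0.88) and the downstream Irf3 (-0.67) and Tbk1 (0.20) were not called. DESeq2 did not call Zbp1.

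The GTPases that interferon gamma induces most strongly, and type I interferon less so, rose in all 8 genes tested of 16, with a median log2 difference of 2.55. Genes such as Iigp1 and Gbp2 were scarce in matched spots and passed the count filter only through the members. That all 8 rose is therefore partly set by the filter. Iigp1 was 30.3 against 1.01 CPM in knockout 1 and 57.1 against 2.82 in knockout 2, Gbp2 was 75.8 against 4.04 and 57.8 against 6.06, and Irgm1 was 85.9 against 8.09 and 90.9 against 18.7. Class I antigen presentation rose less, in 5 of 8 genes tested with a median of 0.90. Tapbp, which loads peptide, was 55.6 against 37.4 and 88.8 against 36.2 CPM, and H2-T23 was 35.4 against 21.2 and 30.3 against 11.0. The abundant class I genes B2m (0.39) and H2-D1 (0.17) were not called. None of the class I rises was called by DESeq2 or without the 5 spots richest in Cxcl10 of each library, and the H2 genes share sequence with their neighbours. Of class II genes only Ctss, a protease that also marks microglia, was higher of 2 tested (0.67). That call was lost within region lists (0.54), with phagocyte matching, without the 5 richest spots and by DESeq2. H2-Ab1 was at 0 and 31.0 CPM in members. The class II list of 9 genes, Ctss included, nevertheless summed higher in members of both libraries. In knockout 1 it gave 2.78 UMIs per 10000 (2.09 to 3.62) against 1.28 (1.07 to 1.53). In knockout 2 it gave 2.27 (2.03 to 2.53) against 1.62 (1.53 to 1.72).

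Genes of NF-kB and the acute phase rose in 7 of 15 tested, with a median of 0.93, and several were further apart in knockout 2, a difference between libraries that was not tested. Lcn2, an iron-binding acute-phase protein, was 60.6 against 19.2 CPM in knockout 1 (3.16-fold, 1.40 to 6.85) and 307 against 33.8 in knockout 2 (9.08-fold, 7.74 to 10.7). Saa3, serum amyloid A3, was 15.2 against 7.07, an interval that includes no difference, and 92.3 against 3.38 (27.3-fold, 17.6 to 44.1). Its fitted log2 difference of 4.21 (edgeR adjusted p 4.7e-28) thus rests on knockout 2. Ptgs2, the inducible cyclooxygenase, was 20.2 against 7.07 and 84.5 against 12.8 CPM, and Tnfaip2 was 10.1 against 3.03 and 35.2 against 2.11. DESeq2 did not call Ptgs2 or Tnfaip2. Saa3 and Tnfaip2 were scarce in matched spots and passed the count filter only through the members, which partly sets the count of 7. Nfkb1 (0.43), Nfkbia (0.38) and Vcam1 (0.49) were not called.

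Reactive astrocyte genes rose in 8 of 19 tested (median 0.61) and those of astrocytes in general fell in 3 of 12 (median -0.24). Timp1, an inhibitor of metalloproteinases, was 70.7 against 23.2 and 246 against 36.1 CPM. Serpina3n was 525 against 316 and 914 against 425, Cd44 was 50.5 against 11.1 and 48.6 against 15.8, and Vim was 707 against 408 and 695 against 504. Gfap itself was not called (0.38), at 389 against 324 and 420 against 299 CPM. Aldoc, a glycolytic enzyme of astrocytes, was 818 against 1419 and 528 against 1003. When matched spots were taken from the same region list, 4 reactive genes were called, and Vim (0.26) and Aldoc (-0.43) were not. Without the 5 richest spots Serpina3n (0.64) and Vim (0.64) were not called, and DESeq2 did not call Cd44 or Vim.

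Genes induced by low oxygen were higher in the members of both libraries. Of 13 tested 10 were higher and none lower, with a median of 0.99. Ero1l, an oxidase of the endoplasmic reticulum, was 146 against 41.4 CPM in knockout 1 and 194 against 49.2 in knockout 2 (1.92 ± 0.20, edgeR adjusted p 7.7e-19). Bnip3, a mitophagy receptor, was 525 against 187 and 545 against 215, Vegfa, the endothelial growth factor, was 142 against 61.6 and 213 against 64.4, and the lactate dehydrogenase gene Ldha was 611 against 353 and 1012 against 450. The members lay above matched spots in both libraries for these 4 genes, as they did without overlap for 21.5% of all tested genes. Slc2a1, the glucose transporter of barrier endothelium and astrocytes, was not called (-0.15). The list summed to 28.7 and 35.5 UMIs per 10000 in members, to 17.2 and 18.9 in matched spots and to 15.9 and 14.2 in matched control spots. Within region lists 6 of the 13 were called (median 0.79), and without the 5 richest spots of each library 5 of 12.

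Markers of activated phagocytes differed little in sum, and the sum went opposite ways in the 2 libraries. The 27 activated phagocyte genes gave 69.2 and 52.7 UMIs per 10000 in the members of knockouts 1 and 2 and 59.8 and 54.6 in matched spots. Of 22 tested genes 6 were higher and 17 lay above 0. Cd68, a lysosomal protein, was 85.9 against 10.1 and 55.6 against 24.2 CPM, Lgals3 was 45.5 against 11.1 and 55.0 against 23.2, and Fcgr4 was 40.4 against 5.05 and 19.0 against 7.47. Without the 5 richest spots Lgals3 (1.36) and Fcgr4 (0.94) were not called, and DESeq2 called none of these 3. Fcgr4 passed the count filter only through the members, which partly sets the count of 6. Abundant genes of the list such as Apoe (-0.20), Ctsd (0.26) and Spp1 (-0.13) were not called, and Spp1 went opposite ways, at 389 against 180 CPM in knockout 1 and 108 against 204 in knockout 2. Of 9 homeostatic microglia genes none was called, with Csf1r at 0.61, but 7 lay above 0. Their list summed higher in members of both libraries. In knockout 1 it gave 4.14 UMIs per 10000 (3.3 to 5.14) against 2.87 (2.55 to 3.22). In knockout 2 it gave 3.94 (3.62 to 4.28) against 3.11 (2.99 to 3.25). With matched spots that had like totals of both all UMIs and phagocyte UMIs, 33 of the 42 interferon-stimulated genes were still called, with a median of 2.56.

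Transcripts of other leukocytes were scarce, those of T and natural killer cells near the limit of detection. Of 20 T and natural killer cell genes 12 had no UMI in any member, Cd8a, Gzmb, Prf1 and Ncr1 among them, and Cd3e had 0 and 0.705 CPM. Their list summed to 0.404 and 0.148 UMIs per 10000 in members, 0.0909 and 0.151 in matched spots and 0.330 and 0.220 in matched control spots, and Trbc2, the only gene tested, was not called (-0.053). Neutrophil genes summed to 0.707 and 0.965 against 0.414 and 0.559, with S100a9 higher of 4 tested (1.24) and Ly6g at 0. The intervals of these sums lay apart in knockout 2, at 0.810 to 1.14 against 0.506 to 0.617, and overlapped in knockout 1. S100a9 was not called within region lists (1.04), with phagocyte matching (1.29), without the 5 richest spots (0.98) or by DESeq2. Among monocyte and border macrophage genes, Ms4a4c (4.08) and Pf4 (2.68) were higher of 6 tested, neither of them by DESeq2, Ccr2 and Ly6c2 had no UMI in members, and the list summed to 2.38 and 1.86 against 1.24 and 1.43. Pf4 also marks platelets, of which no other gene was tested. The part of these cells in the result was not tested.

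No gene of the endothelial, barrier, mural or lesion vessel lists was called higher, but the list sums differed in direction. Per 10000 UMIs, pan-endothelial genes gave 5.15 against 6.77 in knockout 1 and 4.29 against 6.25 in knockout 2. Lesion vessel genes gave 8.94 (7.67 to 10.4) against 6.82 (6.32 to 7.36) in knockout 1 and 7.42 against 7.47 in knockout 2. Barrier genes gave 15.51 against 15.11 and 15.66 against 14.66. Of 12 pan-endothelial genes none was higher and 2 were lower (median -0.66). Ly6c1 was 96.0 against 204 and 106 against 200 CPM (-0.99, edgeR adjusted p 1.3e-05) and Cldn5, the tight junction protein, was 80.8 against 159 and 86.7 against 128. The barrier transporters Mfsd2a (-1.06) and Slco1a4 (-1.26) and the mural genes Rgs5 (-1.48) and Vtn (-1.03) were lower too. Of 13 genes that mark lesion vessels 1 was lower, Klf4 (-1.63), and the rest were not called, Angpt2 (0.46) and Plvap (0.42) among them. Most of these calls depended on the setting. Within region lists Cldn5 (-0.61), Mfsd2a (-0.60) and Slco1a4 (-0.91) were not called. Without the 5 richest spots Ly6c1 (-0.80), Cldn5, Mfsd2a, Slco1a4 and Vtn (-0.78) were not called, and DESeq2 called none of the 6 genes.

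Blood and heme genes gave smaller differences. Of 4 globin genes 3 were higher, Hba-a2 at 273 against 140 and 522 against 334 CPM, but none within region lists (median 0.37). Hmox1, which degrades heme, was 45.5 against 15.2 and 52.8 against 11.0 (2.08), a call not made by DESeq2. Igfbp2, a binding protein of insulin-like growth factors listed with fibroblast genes, was 475 against 138 and 396 against 187 CPM (1.31). Ptgds of the same list, prostaglandin D synthase of meninges and oligodendrocytes, was 1369 against 3438 and 327 against 2328 CPM (-2.15), and DESeq2 did not call it.

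Members and matched spots differed in brain region. By gene lists of brain regions, cortex scored highest in 45.5% and 34.2% of members against 16.4% and 23.3% of matched spots, and white matter in 9.09% and 7.59% against 40.0% and 20.5%. Hippocampus scored highest in 9.09% and 31.6% of members against 14.5% and 20.8%. Myelin genes fell in 7 of 9 (median -0.77), with Mbp at 2986 against 4260 and 626 against 1803 CPM, and within region lists 0 of 9 were called (median -0.12). The excitatory genes Slc17a7 (0.59), Tbr1 (0.89) and Neurod6 (1.00) were higher and Slc17a6, of thalamus and midbrain, lower (-2.32). Within region lists none of the 3 was called, at -0.021 for Slc17a7, 0.13 for Tbr1 and 0.37 for Neurod6, and DESeq2 called none of the 4. Neurod6 was 20.2 against 20.2 CPM in knockout 1 and 85.2 against 37.6 in knockout 2.

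The 8 largest falls among called genes of at least 20 CPM on average with the same direction in both libraries were likewise genes of particular neurons and regions. They were Scn4b (-3.40), the dopamine transporter Slc6a3 (-3.08), Car14 (-2.93), Tcf7l2 of thalamus (-2.89), Cartpt (-2.86), Ucn (-2.63), Fgf1 (-2.52) and Pbx3 (-2.42). Slc6a3 was 50.5 against 101 CPM in knockout 1 and 2.11 against 71.2 in knockout 2, and Cartpt was 253 against 744 and 3.52 against 178, so that the libraries differed widely. Within region lists Slc6a3 (-1.34), Car14 (-1.69), Ucn (-1.11) and Pbx3 (-1.50) were not called, and DESeq2 called only Tcf7l2 of the 8. That matching left 175 genes higher and 40 lower, among them 34 interferon-stimulated genes and all 8 of the GTPases. The immediate early genes, which rise with neuronal firing, had 1 of 9 higher and a median of 0.031.

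**Figure D3:**
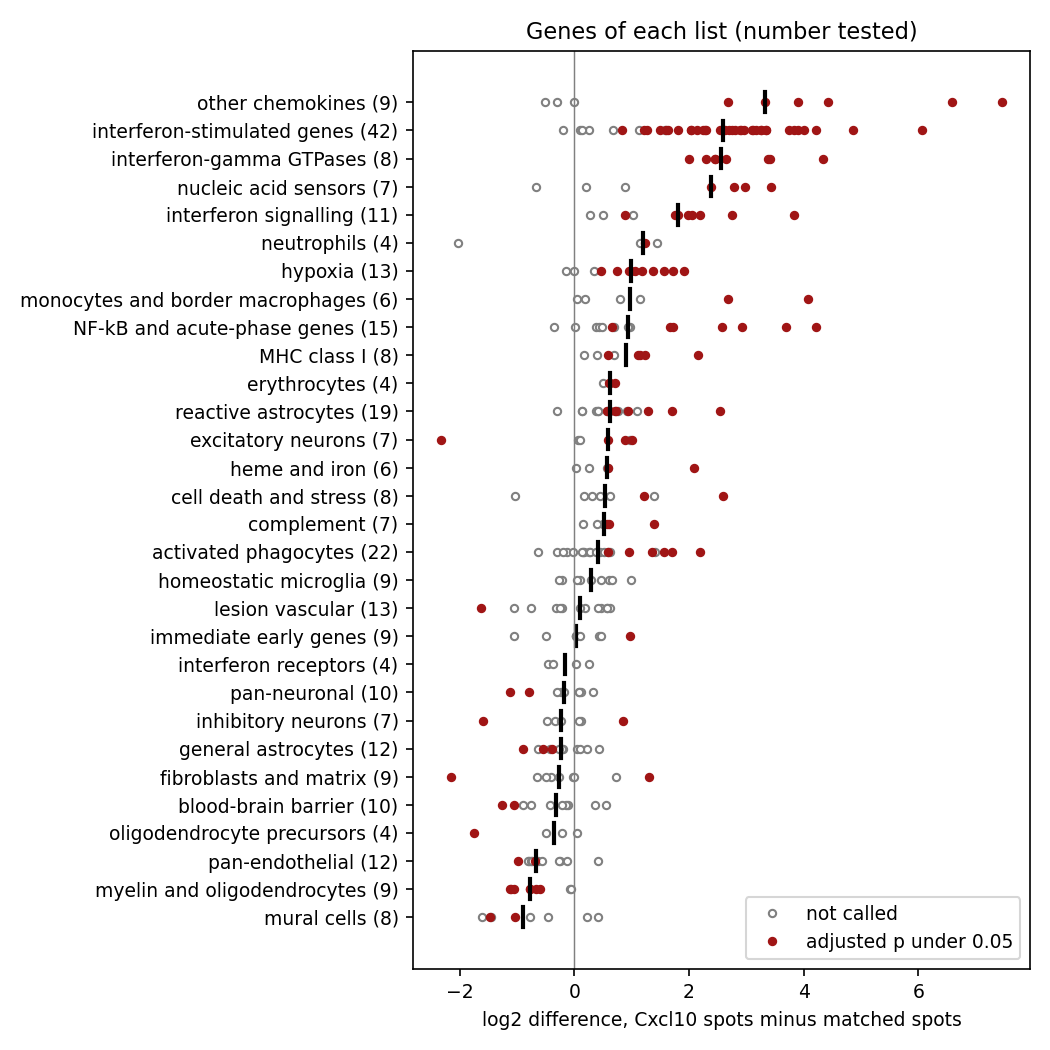
Log2 difference between Cxcl10 spots and matched spots for each tested gene of each list with at least 4 genes tested, filled where the adjusted p was under 0.05, with the list median as a black bar. Chemokines, interferon-stimulated genes, GTPases, sensors and signalling genes have medians above 1.8, hypoxia genes 0.99, and mural, myelin and endothelial genes medians below -0.6.

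The level of the interferon-stimulated list was higher at each step of Cxcl10 UMIs in knockout 2, but not in knockout 1. In knockout 2 it was 7.32 UMIs per 10000 in spots without Cxcl10, 7.69 at 1 UMI, 9.19 at 2, 14.0 at 3, 18.4 at 4 to 9 and 35.4 at 10 or more. In knockout 1 it was 7.13, 10.7, 17.5, 16.3, 30.1 and 27.5 over the same classes, the 4th of which held 1 spot. Just outside the rule, at 2 UMIs, knockout 1 thus already stood at 17.5 over 9 spots, while knockout 2 stood at 9.19 over 60. A spot with more UMIs in all can hold more Cxcl10, and the median depth was 26872.5 UMIs in the top class of knockout 2 against 13119 without Cxcl10.

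Other lists took other courses along the same classes. In knockout 2 chemokines went from 4.15 without Cxcl10 to 8.10 at 4 to 9 and 19.4 at 10 or more, hypoxia genes from 19.2 to 30.04 and 41.9, and reactive astrocyte genes from 24.6 to 34.6 and 43.2. Pan-endothelial genes went from 6.71 to 3.81. Phagocyte genes stayed between 45.5 and 55.1 over all classes of knockout 2. In knockout 1 the chemokine and phagocyte lists were both higher at 4 to 9 UMIs, over 4 spots, than at 10 or more. Over the 79 members of knockout 2, Spearman's rho between Cxcl10 and list, both per UMI, was 0.693 for interferon-stimulated genes, 0.640 for NF-kB genes, 0.561 for chemokines, 0.519 for hypoxia genes and -0.0815 for phagocytes. Over the 11 members of knockout 1 the same values were 0.309, -0.264, 0.10, 0.109 and 0.182, so that the pattern of knockout 2 was not seen there. The points of a library share that library and differ in depth, and the values are a description.

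**Figure D4:**
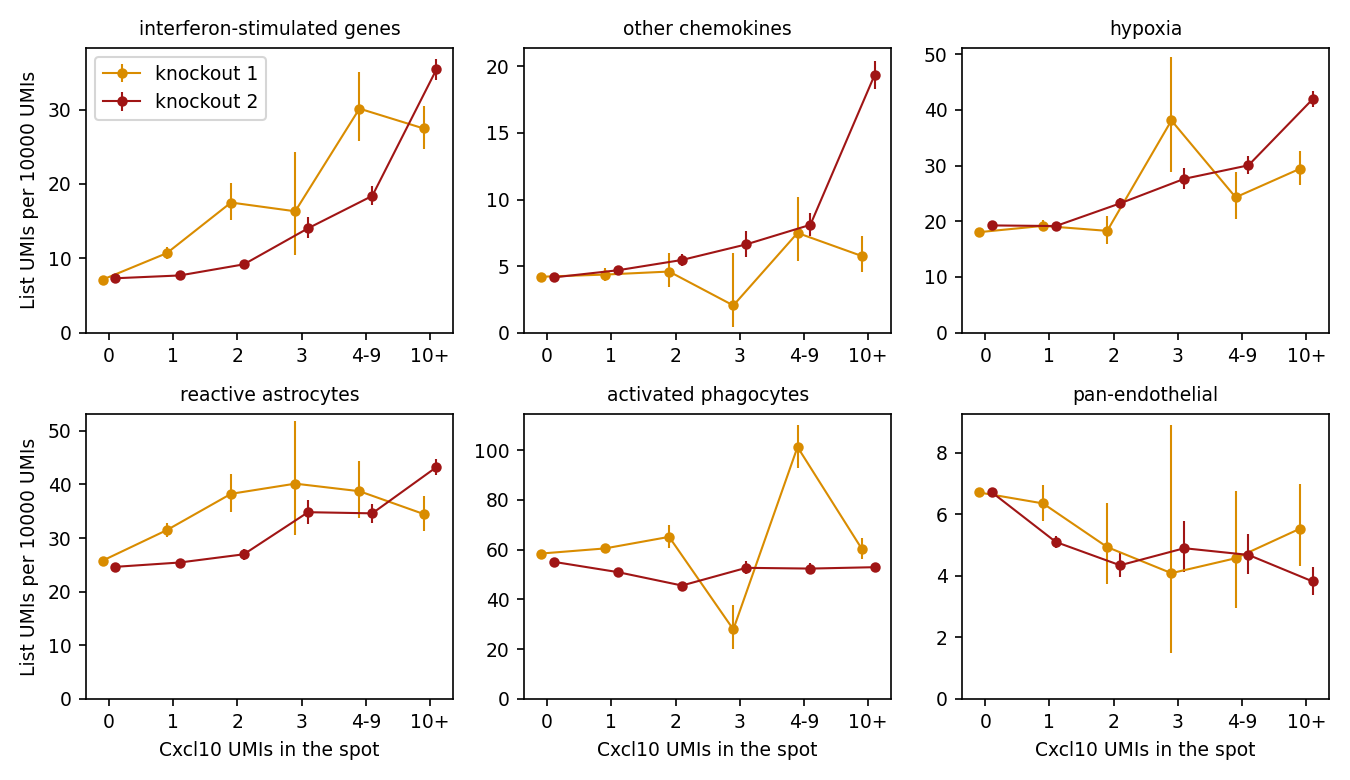
UMIs of 6 gene lists per 10000 UMIs against the number of Cxcl10 UMIs in the spot, for all kept spots of knockout 1 and knockout 2, with 95% Poisson bars. Interferon-stimulated genes reach 35.4 and chemokines 19.4 in the top class of knockout 2, while phagocyte genes show no such course.

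Spots were also ranked singly by each list. Of the members, 9 of 11 in knockout 1 (81.8%, exact interval 48.2 to 97.7) and 54 of 79 in knockout 2 (68.4%, 56.9 to 78.4) were among the top 10% of their library for interferon-stimulated genes. Matched spots were there in 3.64% and 4.30%. For hypoxia genes the shares were 45.5% and 49.4% against 5.45% and 6.33%. For chemokines the shares were 18.2% (2.28 to 51.8) and 60.8% (49.1 to 71.6) against 0 and 6.84% of matched spots. For NF-kB genes they were 9.09% (0.230 to 41.3) and 44.3% (33.1 to 55.9) against 3.64% and 6.84%. The intervals of the 2 libraries overlapped for both lists, and knockout 1 rests on 2 spots and 1 spot. Activated phagocyte genes put 18.2% and 2.53% of members in their top 10%, and lesion vessel genes 9.09% and 2.53%. Neutrophil genes put 0 and 21.5% (13.1 to 32.2) of members there, against 0 and 7.59% (5.18 to 10.7) of matched spots. Depth was matched, but spots of 1 section are not replicates, so no test was made.

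Within knockout 2 the members were not alike. The top 10% for interferon-stimulated, hypoxia and chemokine genes at once held 26 of 79 members, which had a median of 16.5 Cxcl10 UMIs, and 13 were in none of these, with a median of 3. Members high in interferon-stimulated but not in hypoxia genes numbered 21, and the reverse 6. Of the 28 members with at least 10 Cxcl10 UMIs, 27 were in the interferon-stimulated top 10% and 18 in that of hypoxia genes. The 5 richest spots had their highest region score in white matter, cortex, thalamus, cortex and thalamus, so that they did not share a region. In knockout 1 the spot with 10 Cxcl10 UMIs carried 15 Ccl2 UMIs and the highest level of interferon-stimulated genes in that library's members.

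**Figure D5:**
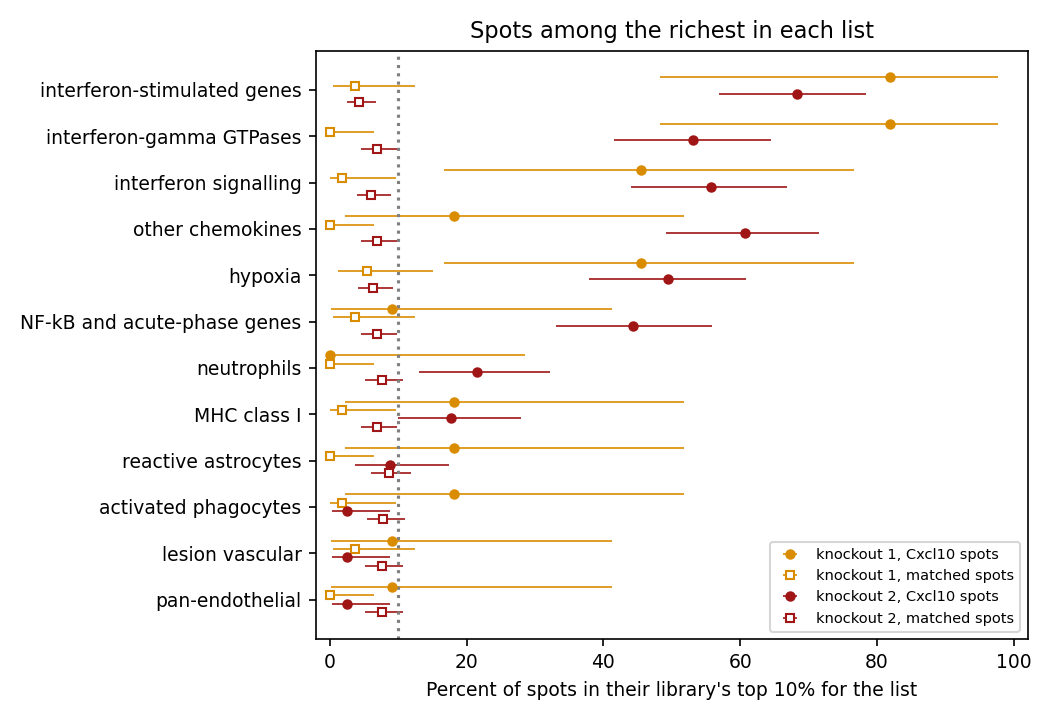
Percent of Cxcl10 spots (circles) and of matched spots (open squares) that were among their library's top 10% for each list, with 95% exact binomial bars and a dotted line at 10%. Interferon-stimulated genes hold 81.8% and 68.4% of members, whereas phagocyte, lesion vessel and endothelial genes hold under 20%.

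Control sections had few spots with Cxcl10, and these were also high in interferon-stimulated genes. In control 1 the 9 spots with at least 1 Cxcl10 UMI held 14.2 list UMIs per 10000 (12.4 to 16.2) against 4.20 in spots without it, and the single spot with 3 held 24.2. In control 2 the 13 such spots held 10.1 (8.98 to 11.4) against 3.90. Hypoxia genes stood at 14.6 (12.8 to 16.6) against 16.0 and at 11.6 (10.4 to 12.96) against 14.2. Chemokines stood at 5.22 against 5.71 and 4.50 against 5.76.

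The ISRE letters were more frequent before the genes that rose. Windows were found for 249 of the 311 higher genes (80.1%), and 12.9% of them held a match, against 3.13% of the 8687 tested genes with a window and 3.46% of all 27025 genes with one. In the interferon-stimulated list the share was 34.3% of 35. The NF-kB motif stood in 11.2% of windows of higher genes against 5.73% of tested genes, and the GAS letters TTCNNNGAA, which were searched on both strands too, in 8.84% against 6.85%. Most higher genes thus had none of these letters in the window, which says nothing of the factors.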

How the data were processed

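The data are 4 Visium libraries of mouse brain sections, 2 per group. The authors deposited raw UMI counts per gene and barcode. They were made with Space Ranger on mm10, per the submitters' processing notes; no source used here gives further settings. The tables hold 32285 genes. Members, gene lists and tests were chosen with earlier results of these data known.

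Spots with at least 1000 UMIs were kept, without doublet calling. Each member was matched, without reuse, to 5 Cxcl10-free spots of the same library with the nearest total, and controls were matched likewise (450 spots each). Counts were summed per library and class. edgeR 4.0.16 (R 4.3.3) tested the 10808 genes that passed filterByExpr, with TMM factors and library as a replicate block, since member and matched sums of a library come from the same section. CPM leaves Cxcl10 out of the totals. Genes were called at an adjusted p under 0.05 (Benjamini-Hochberg, all tested genes). On data simulated from these sums (10484 genes tested), 90% of 4-fold and 48% of 2-fold changes were recovered, with 5 false of 143 calls. The simulation used the dispersion of the fit itself, with no clumping in single spots and the same change in both libraries. Its false calls therefore do not gauge those among the real calls. The sums of the 2 knockouts differed by more than sampling noise (chi-square per degree of freedom 2.16 in members).

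The named genes are the 12 largest rises and 8 largest falls among called genes with the same direction in both libraries and at least 20 CPM on average, all genes of the interferon ligand, receptor, signalling and CXCR3 lists, and from every other list up to 4 called genes of smallest p or else its 2 most abundant. Others named were chosen after their values were seen. A list counts as tested where its genes passed the filter. Cxcl11, Mx1, Mx2, Oas1b, Rigi and Sting1 are absent under these symbols, Ddx58 being listed for RIG-I, and Ccl19, Ccl21a, Ccl27a and Ddit3 have several identifiers; these were not analysed here. Promoter windows are RefSeq's of GRCm38.p6, matched by symbol or synonym to 80.4% of tested genes. For the lower genes only 74.1% had a window, so their motif shares were not used. Region lists assign a spot to the list it scores highest on.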

Additional observations from a re-analysis of the deposited data

How the results depend on the processing

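The median of the interferon-stimulated genes stayed above 0 under each alternative run, while counts over all genes depended on the settings. The counts higher and lower were 116 and 87 with 1 matched spot per member, 169 and 131 for members of at least 2 Cxcl10 UMIs, 176 and 76 for at least 5, 175 and 40 with matching within region lists, 179 and 121 with matching on phagocyte UMIs, and 61 and 17 with DESeq2's Wald test. Without the 5 spots richest in Cxcl10 of each library, an alternative chosen after seeing the data, they were 129 and 104. The paired design mattered: with no replicate block they were 185 and 94. The interferon-stimulated list had 26 to 37 genes called under the edgeR alternatives and 19 with DESeq2, none lower. Its median of 2.59 became 2.28, 2.004, 2.83, 2.31, 2.56, 2.504 and 2.10 in the same order, leaving aside the replicate block, and 2.65 with 10 matched spots, 2.60 for spots of at least 5000 UMIs, 2.60 with DESeq2 size factors and 2.28 with no filter on low counts. Leaving out either library gave 2.62 to 2.62, values with no test since no residual degree of freedom was left. The sign turned for Slc17a7 (-0.021) and Mobp (0.056) within region lists and for the Neurod6 log2 difference, which was -0.0375 without knockout 2 and 1.16 without knockout 1. Of the genes with a fitted value that the naming rule picked, 56 lost their call with DESeq2, 30 with 1 matched spot, 28 within region lists, 28 without the 5 richest spots, 24 with no replicate block, 21 and 17 with members of at least 2 and 5 UMIs and 16 with phagocyte matching. The 12 largest rises kept an adjusted p under 0.05 in each alternative that tested them.

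The share of spots depended on the rule. With at least 1 Cxcl10 UMI it was 0.307% in control 1, 0.317% in control 2, 1.54% in knockout 1 and 9.03% in knockout 2. With at least 2 it was 0.435% in knockout 1 and 3.11% in knockout 2. With at least 5 it was 0 in control 1 and 1.03% in knockout 2. With at least 3 after thinning to 5000 UMIs it was 0 in control 1 and 1.15% in knockout 2. Knockout 2 supplied 79 of 90 members. Genes under about 10 CPM in knockout 1 rest on a few UMIs there.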
